A study of Gallus gallus with 60 samples.

Results

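The chicken miR-15 and miR-16 family was taken as every miRNA whose name begins gga-miR-15a, gga-miR-15b, gga-miR-15c, gga-miR-16- or gga-miR-16c in both tables of small RNA values. This rule found 10 members, and all 10 were listed in both tables, among 890 miRNAs in the table of embryos and muscle and 707 in the table of other tissues. The members were gga-miR-15a, both arms of gga-miR-15b, gga-miR-15c and gga-miR-16c, and gga-miR-16-5p with its 2 opposite arms, gga-miR-16-1-3p and gga-miR-16-2-3p. The study sequenced small RNA of Tibetan chickens, with 3 samples in each of 20 groups. There were 39 pectoral muscle samples of 13 stages, at embryonic days E9, E12, E15, E18 and E20, at D1, D36, D100 and D300 after hatching and at Y3, Y5, Y8 and Y12 in years. There were also 6 samples of E5 and E7, which the labels call pectoral muscle and the methods of the study call the entire embryo, and 15 samples from 5 other organs at D300 (spleen, liver, ovary, brain and kidney). No treatment or mutant was used. The Y3 group is 3 years old in the labels, while the methods place it in the second year, and the labels were followed here. Nothing says how the samples of a group were related, so each p-value below measures only the spread between these samples.

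A miRNA is cut from the 2 arms of a short hairpin, and the arm that is kept in the silencing complex is the guide while its partner, the passenger, is mostly degraded. The guides of this family carry the same seed, the short stretch near the 5′ end that pairs with target messengers. In human cells they repress cyclins and cyclin-dependent kinases that carry a cell from its first gap phase into DNA replication, as well as the survival protein BCL2, and in the mouse heart members of the family rise after birth when cardiomyocytes stop dividing. In RefSeq, on the assembly named GRCg7b, the 6 hairpins lie in 3 pairs. The hairpins of miR-15a and miR-16-1 lie inside the long non-coding RNA gene LOC124417627, whose nearest coding neighbour is KCNRG, a regulator of potassium channels. The hairpins of miR-15b and miR-16-2 lie within SMC4, a subunit of the condensin complex that compacts mitotic chromosomes, next to IFT80. The hairpins of miR-15c and miR-16c lie within LOC101749419, and their nearest other coding gene is HPRT1, an enzyme of purine salvage. gga-miR-16-5p can come from the miR-16-1 and the miR-16-2 hairpin, and its reads cannot be told apart by origin.

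Values are given as the authors' TPM, which here are reads scaled to a common library total (RPM). In 56 of the 60 samples whole read numbers could be recovered, and library totals were then 9347754 to 13060558 reads, so that 3 reads, the smallest amount taken as detectable, correspond to 0.230 to 0.321 TPM. The study grouped the muscle stages into an early embryonic period (Pre_E: E9 and E12, n = 6), a late embryonic period (Lat_E: E15, E18, E20 and D1, n = 12) and a postnatal period (Bir_G: D36 to Y12, n = 21). These periods were drawn by clustering the same samples, so a difference between them is not independent of how they were set. Over all listed miRNAs the sum ran from 427686 to 625484 TPM in Pre_E, from 294507 to 541736 TPM in Lat_E and from 657870 to 875328 TPM in Bir_G. The 4 skeletal muscle markers (gga-miR-1a-3p, gga-miR-133a-3p, gga-miR-206 and gga-miR-499-5p) summed to 7887 to 74534 TPM in Pre_E, 71489 to 224864 TPM in Lat_E and 211712 to 393778 TPM in Bir_G. The sum does not stand for each marker, as gga-miR-206 was listed at 0 in all 3 Y8 samples. Over the 13 muscle stages gga-miR-206 moved with gga-miR-15b-5p (Pearson r of 0.970), which was lower in Bir_G than in Pre_E. Markers of blood cells moved with the periods too: of 3 erythroid markers gga-miR-144-3p and gga-miR-144-5p were listed and summed to 13.3 to 40.6, 0 to 39 and 143 to 752 TPM, and 3 of 5 leukocyte markers (gga-miR-142-3p, gga-miR-142-5p and gga-miR-155) summed to 132 to 282, 59.2 to 278 and 1721 to 9073 TPM. Their part in the results below was not tested. No batch is named, so library handling and stage cannot be told apart, and in whole tissue fewer cells of a type cannot be told apart from less RNA per cell.

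The family was lower in Bir_G than in Pre_E, and its makeup differed. Summed over the 10 members, it held 6258, 7587 and 8850 TPM (lowest, median and highest) in Pre_E, 1684, 4467 and 9343 TPM in Lat_E and 2319, 3369 and 5095 TPM in Bir_G. The course was not even: the sum was 2455, 3814 and 1684 TPM at D1, the last the lowest of all muscle samples, and 3147, 4743 and 5095 TPM at D36. The D1 samples with 2455 and 1684 TPM had low sums over all listed miRNAs, at 294507 and 321660 TPM. At D36 these sums were 722388 to 821867 TPM. As a share of all listed miRNAs the family did not rise in this step, with 0.523% to 0.834% at D1 and 0.408% to 0.657% at D36. Every Bir_G sample was below every Pre_E sample, while Lat_E overlapped both. As a share of all listed miRNAs the family took a median of 1.42% in Pre_E, 0.960% in Lat_E and 0.457% in Bir_G. Within the family, miR-15c and miR-16c together gave a median of 59.2% of the TPM in Pre_E (48.6% to 64.1%) and 59.5% in Lat_E (45.6% to 68.3%), against 14.9% in Bir_G (9.98% to 34.3%). miR-15a with gga-miR-16-1-3p took the opposite course, from 3.89% (2.90% to 4.39%) and 4.45% (3.29% to 6.02%) before D36 to 33.7% after it (18.7% to 46.4%). For both, the samples of E9 to D1 did not overlap with those of D36 to Y12. gga-miR-16-5p was a large part throughout, at medians of 30.8%, 24.9% and 45.3%, and the miR-15b and gga-miR-16-2-3p arms were a small part, at 5.27%, 9.12% and 2.75%. The sum of the family varied 5.55-fold over the 39 muscle samples, gga-miR-15a alone 24.8-fold and gga-miR-15c-5p alone 24.5-fold.

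**Figure D1:**
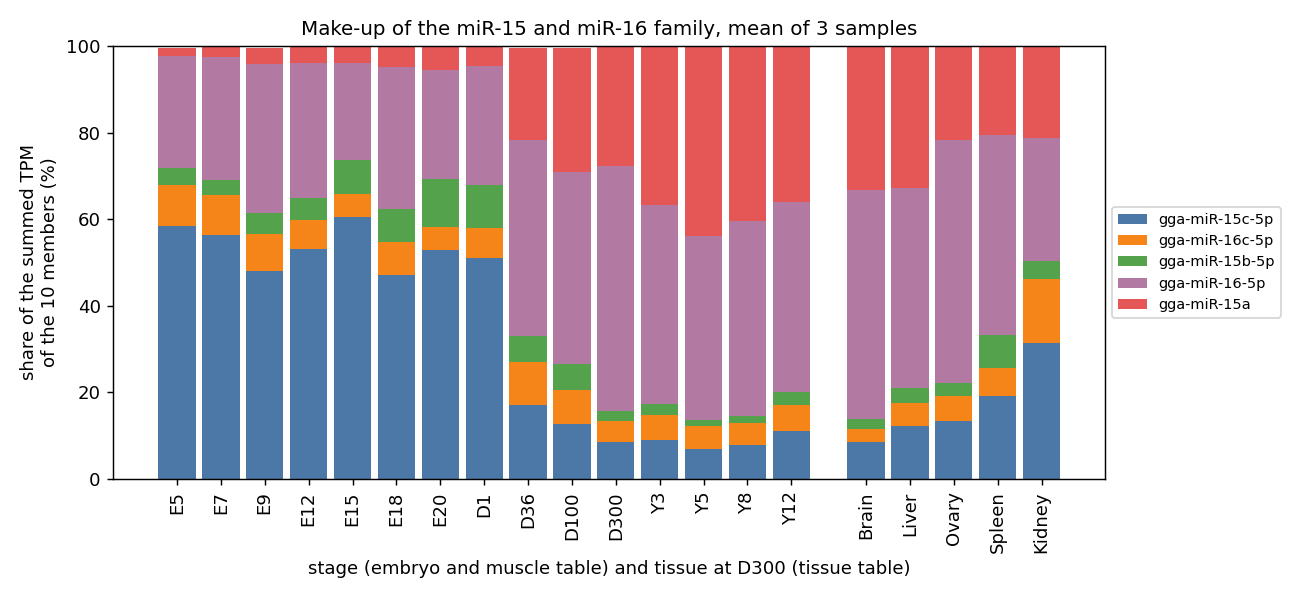
Mean share (percent of the family's TPM, n = 3 samples a bar) of the 5 abundant members in the 15 embryo and muscle stages and in the 5 other tissues at D300. gga-miR-15c-5p fills the largest part of the bars from E5 to E20 and at D1, and gga-miR-16-5p and gga-miR-15a fill most of the bars from D36 to Y12, where miR-15c with miR-16c falls to a median of 14.9%.

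gga-miR-15c-5p, the guide of the miR-15c hairpin, had the highest mean of the members at each stage before hatching and fell the furthest of the 5 abundant members. In single samples of E9 and E18 gga-miR-16-5p was higher. It measured 4707, 3042 and 3364 TPM in the 3 E9 samples and 4278, 3586 and 3761 TPM at E12. At E15 it measured 4453, 3371 and 2861 TPM and at E18 3376, 2900 and 3065 TPM. It was lower at E20, with 1678, 2418 and 1761 TPM, and at D1, with 1575, 1693 and 752 TPM. By D36 it was at 677, 674 and 773 TPM, and by D300 at 312, 351 and 295 TPM. The lowest values were those of Y5, at 255, 192 and 205 TPM. Pre_E samples ranged from 3042 to 4707 TPM and Bir_G samples from 192 to 773 TPM, with no overlap, and the mean was 10.3-fold lower in Bir_G. On the log2(TPM + 1) scale the difference was -3.45 ± 0.23 (SE; limma, Benjamini-Hochberg adjusted p = 1.8e-13). Lat_E to Bir_G gave -2.72 ± 0.22 (limma, adjusted p = 5.7e-13), and the lowest Lat_E sample, a D1 sample at 752 TPM, was just under the highest Bir_G sample. Between Pre_E and Lat_E the member overlapped and was not called, at -0.73 (limma, adjusted p = 0.0567).

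gga-miR-15a, the guide of the hairpin that lies beside miR-16-1, rose in one step after hatching. It measured 240, 274 and 373 TPM at E9, 368, 213 and 250 TPM at E12, 254, 204 and 194 TPM at E15 and 373, 247 and 313 TPM at E18. It stood at 189, 186 and 198 TPM at E20 and at 80.7, 206 and 76.3 TPM at D1. At D36 it was at 629, 1212 and 949 TPM, above every earlier sample. Later stages stayed above the earlier ones, with 997, 1158 and 900.4 TPM at D100, 1055, 1479 and 724 TPM at D300, 1894, 1185 and 1097 TPM at Y5, 1791, 1458 and 1114 TPM at Y8 and 917, 1163 and 888 TPM at Y12. Lat_E samples ended at 373 TPM and Bir_G samples began at 629 TPM, so that the periods did not overlap, and the mean was 5.51-fold higher in Bir_G. The difference was 2.54 ± 0.18 on the log2(TPM + 1) scale (limma, adjusted p = 3.9e-14). Pre_E to Bir_G gave 2.00 ± 0.17, again without overlap, while Pre_E to Lat_E gave -0.54 and was not called (limma, adjusted p = 0.151).

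gga-miR-15b-5p, the guide of the hairpin within SMC4, was not called between the embryonic periods. Its D36 and D100 samples lay below every Pre_E sample, and it was lower again from D300 on. Its lowest, median and highest values were 302, 377 and 441 TPM in Pre_E and 110, 408 and 563 TPM in Lat_E, and Pre_E and Lat_E differed by 0.05 on the log2 scale (limma, adjusted p = 0.882). It was at 224, 267 and 268 TPM at D36 and 228, 183 and 221 TPM at D100, within the range of the D1 samples (110 to 383 TPM). At D300 it was at 77.2, 119 and 78.2 TPM, and at Y5 at 61.6, 42.7 and 35.9 TPM. The values of D300 and later lay below those of all D36 and D100 samples. Lat_E to Bir_G gave -1.96 ± 0.29 (limma, adjusted p = 5.2e-07), with overlap at the D1 sample of 110 TPM. Pre_E to Bir_G gave -1.91 ± 0.37 (limma, adjusted p = 4.9e-05) and the samples of these periods did not overlap.

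gga-miR-16-5p, the member with the highest mean in Bir_G, varied widely within a stage, and its periods overlapped. It measured 2322, 1972 and 3779 TPM at E9 and 3098, 1797 and 2075 TPM at E12. At E18 1 sample stood apart, with 4212 TPM beside 1409 and 1641 TPM, and at D1 the samples held 379, 1224 and 590 TPM. At D36 they held 1200, 2174 and 2636 TPM and at Y12 1762, 1098 and 908 TPM. Its lowest, median and highest values were 1797, 2198 and 3779 TPM in Pre_E, 379, 1146 and 4212 TPM in Lat_E and 908, 1644 and 2652 TPM in Bir_G. Pre_E to Lat_E gave -1.09 ± 0.36 (limma, adjusted p = 0.0257). This call was lost with values centred on the median miRNA, where it was -0.16, and with values scaled to the sum of the listed miRNAs, where it was -0.84, and also with edgeR (-0.11), with stage means and without the samples numbered 2 or 3. Lat_E to Bir_G gave 0.48 (limma, adjusted p = 0.0611) and Pre_E to Bir_G -0.61 (limma, adjusted p = 0.00679, below the 2-fold limit), and neither was called.

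gga-miR-16c-5p, the guide of the hairpin beside miR-15c, had lowest, median and highest values of 394, 567 and 850 TPM in Pre_E, 99.6, 268 and 880 TPM in Lat_E and 143, 182 and 454 TPM in Bir_G. The 3 E18 samples held 880, 311 and 449 TPM, and the high one was the same sample that stood apart in gga-miR-16-5p. It was at 99.6, 299 and 150 TPM at D1, at 402, 397 and 454 TPM at D36 and at 181, 177 and 149 TPM at Y12. All periods overlapped. Pre_E to Lat_E gave -1.07 ± 0.35 (limma, adjusted p = 0.0223), a call lost under median centring (-0.14), sum scaling (-0.81), edgeR (-0.12) and stage means and without the samples numbered 2 or 3. Pre_E to Bir_G gave -1.39 ± 0.22 (limma, adjusted p = 3.4e-06) and was under the 2-fold limit with median centring, at -0.91, and with edgeR, at -0.64. Lat_E to Bir_G was not called at -0.32 (limma, adjusted p = 0.224).

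**Figure D2:**
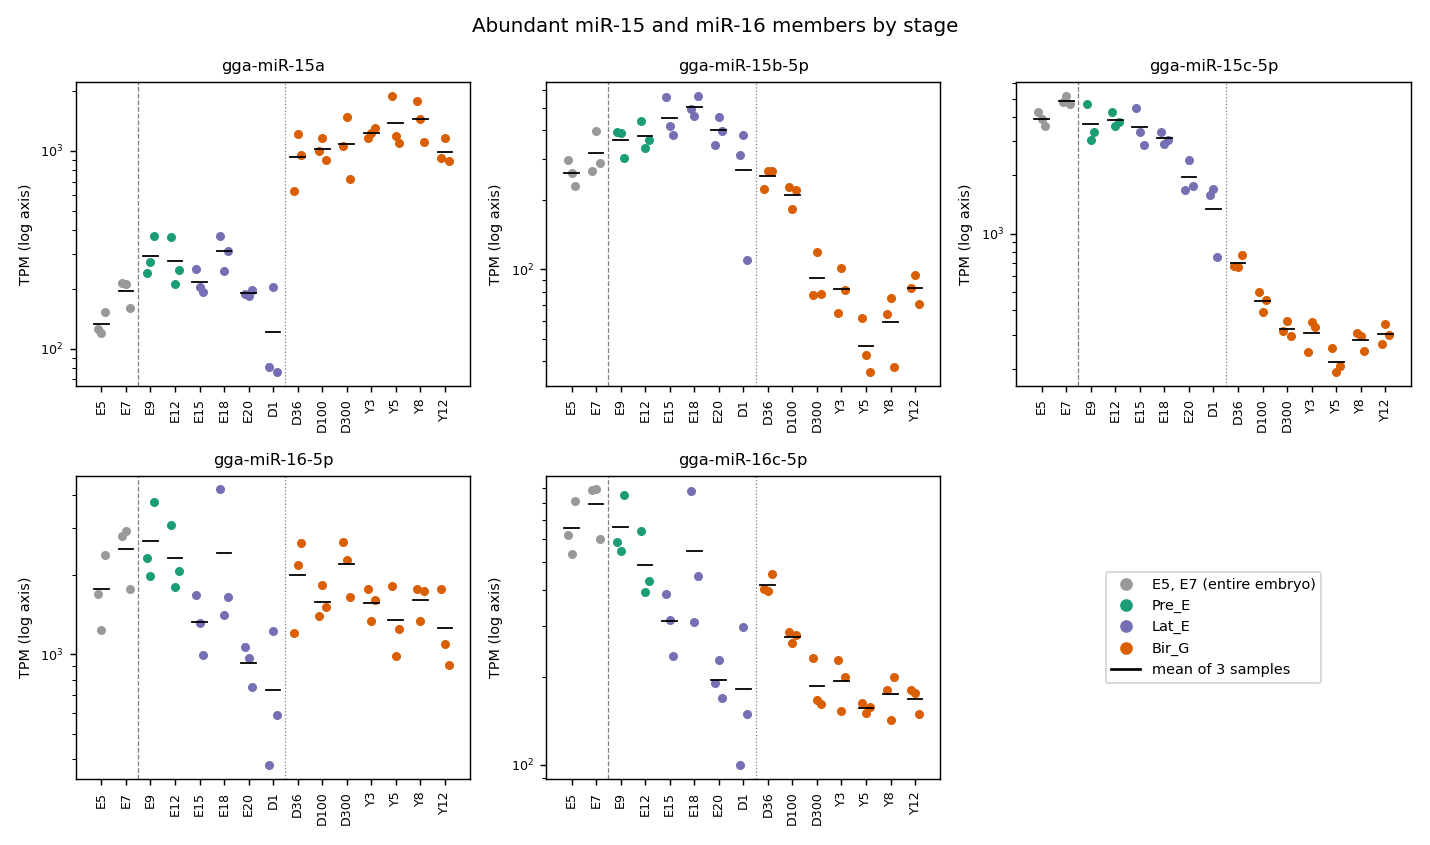
TPM (log axis) of the 5 abundant members in every sample of E5 to Y12, with points for samples and a bar for the mean of 3. The dashed line parts the entire embryos from the muscle stages and the dotted line parts D1 from D36. gga-miR-15a lies at 76.3 to 373 TPM before the dotted line and 629 to 1894 TPM after it, gga-miR-15c-5p falls from 3042 to 4707 TPM in Pre_E to 192 to 773 TPM in Bir_G, and gga-miR-16-5p overlaps throughout.

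The opposite arms were much scarcer and followed their own courses. gga-miR-16-1-3p, the passenger of the hairpin beside miR-15a, lay at 0 to 0.522 TPM in all 18 samples from E9 to D1, mostly at or under the 3-read floor. It was at 1.41, 2.89 and 2.07 TPM at D36 and at 5.11, 2.91 and 4.08 TPM at Y5. Its Bir_G range was 1.41 to 5.11 TPM, with no overlap with either earlier period, and Lat_E to Bir_G gave 1.64 ± 0.11 on the log2(TPM + 1) scale (limma, adjusted p = 9.3e-15), or 3.64 with 0.1 added in place of 1. The ratio of the means was 18.4, but the Lat_E mean of 0.144 TPM lies under the 3-read floor, so its size is uncertain. Pre_E to Bir_G gave 1.45 ± 0.15. The passenger of the other miR-16 hairpin, gga-miR-16-2-3p, also rose from D1 to D36 but was down again at D300. It was highest at E9 with 16.6, 16 and 17.4 TPM, was at 5.19, 7.57 and 3.86 TPM at D1, returned to 12.7, 13.3 and 11.3 TPM at D36 and was at 2.94, 5.07 and 1.67 TPM at D300. Pre_E to Bir_G gave -1.11 ± 0.34 (limma, adjusted p = 0.00553) with overlap. That call was under the 2-fold limit with median centring, at -0.63, and without the samples numbered 1, at -0.98, and was lost with edgeR, at -0.46, and with stage means.

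The 2 miR-16 passengers come from different hairpins, so their reads can be set beside each other, although gga-miR-16-5p itself cannot be split. gga-miR-16-1-3p made a median of 1.94% of the reads of both passengers in 5 Pre_E samples (15 against 600 reads in all) and 2.51% in 12 Lat_E samples (18 against 716 reads). In 19 Bir_G samples it made a median of 34.7% (550 against 1170 reads). By stage the median share was 2.38% at D1 (5 against 184 reads), 15.4% at D36 (68 against 399 reads), 20% at D100 in 2 samples, 44.6% at D300 and 58.5% at Y5. This share was chosen after the values were seen and is given as a description, with no test.

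gga-miR-15c-3p, the passenger of miR-15c, fell earlier than its guide. It was at 14.3, 11.8 and 10.2 TPM at E9, at 10.2, 5.67 and 5.14 TPM at E12 and at 3.11, 3.5 and 1.91 TPM at E15. No Lat_E sample, at 0.765 to 3.5 TPM, reached the lowest Pre_E sample at 5.14 TPM, and Pre_E to Lat_E gave -1.87 ± 0.23 (limma, adjusted p = 1.7e-05), or -0.94 and no call with median centring, and it was also lost with stage means. Pre_E to Bir_G gave -2.75 ± 0.14 without overlap. gga-miR-15b-3p, the passenger of miR-15b, went from 1.07 to 3.53 TPM in Pre_E to 0 to 0.681 TPM in Lat_E and 0 to 0.630 TPM in Bir_G, and was listed at 0 in 2 of 12 and 7 of 21 samples. Its Pre_E samples overlapped with neither later period, and Pre_E to Lat_E gave -1.20 ± 0.17 (limma, adjusted p = 4.7e-05), or -0.27 with median centring. gga-miR-16c-3p stayed close to the floor, with at most 0.207 TPM in Lat_E, where 6 of 12 samples were listed at 0, and 0.0938 to 1.06 TPM in Bir_G. Its mean was 6.09-fold lower in Lat_E than in Pre_E and 6.58-fold higher in Bir_G than in Lat_E, with overlap both times. The Lat_E mean of 0.0582 TPM lies under the 3-read floor, so the size of these folds is uncertain. With values mostly below 1 TPM its difference depends on the value added before the log: it was under the 2-fold limit in every comparison of periods on the log2(TPM + 1) scale, but past it with 0.1 added, at -1.25 from Pre_E to Lat_E and 1.56 from Lat_E to Bir_G, and with edgeR at 2.60 from Lat_E to Bir_G.

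**Figure D3:**
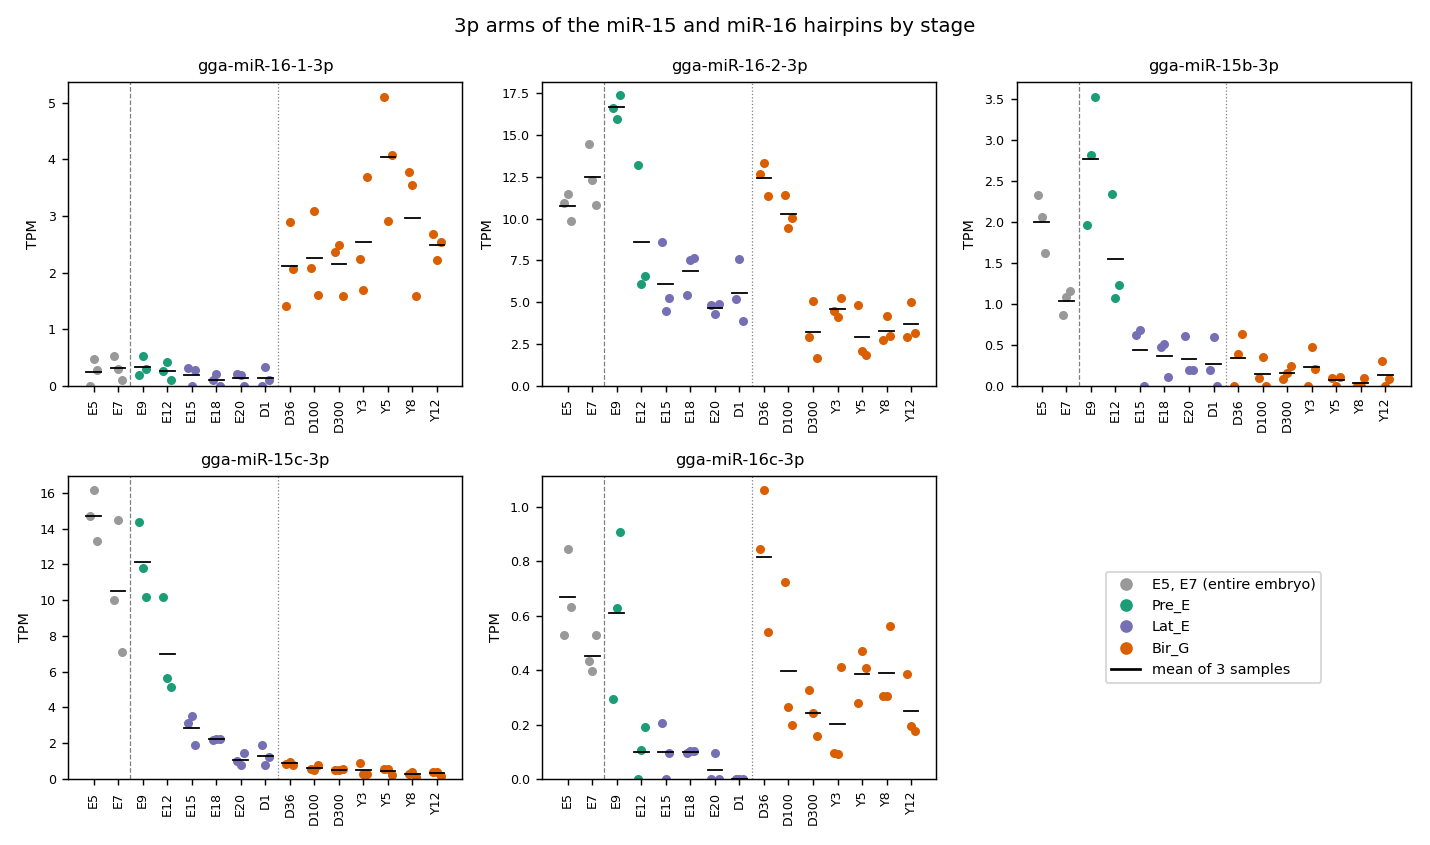
TPM (linear axes) of the 5 passenger arms in every sample of E5 to Y12, with points for samples and a bar for the mean of 3. gga-miR-16-1-3p stays at 0 to 0.522 TPM from E9 to D1 and is at 1.41 to 5.11 TPM from D36 on, gga-miR-16-2-3p has a second high level at D36, and gga-miR-15c-3p falls from E9 on.

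Counted over the family, 4 of 10 members were lower in Lat_E than in Pre_E (gga-miR-15b-3p, gga-miR-15c-3p, gga-miR-16-5p and gga-miR-16c-5p), where a call needed an adjusted p of at most 0.05 and a 2-fold difference. Over all 760 miRNAs tested 19.3% were called, and 17.2% were lower. The median difference was -0.83 over the members and -0.21 over all tested, and it was -0.84 over the 179 miRNAs whose mean reached 10 TPM. With median centring no member was called by limma, and 4 had an unadjusted p of at most 0.05. 2 members, both passengers, did not overlap between these periods, beside 5.39% of all miRNAs, 5% lower. From Lat_E to Bir_G 2 members rose (gga-miR-15a and gga-miR-16-1-3p) and 2 fell (gga-miR-15b-5p and gga-miR-15c-5p), where 27.8% of 731 miRNAs were called, 13.8% higher and 14% lower. The 2 that rose did not overlap, beside 13.5% of all miRNAs, 9.03% higher. These 4 calls held under every alternative tried. The counts of 4, 4 and 8 in the 3 comparisons of periods were the same without the E18 sample numbered 1 and the D1 sample numbered 3.

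Between Pre_E and Bir_G 8 of 10 members were called, 2 higher and 6 lower, beside 36.1% of all 785 miRNAs, with 11.5% higher and 24.6% lower. The members' median was -1.25 and that of all miRNAs -0.19, or -0.61 over the 195 miRNAs whose mean reached 10 TPM. 6 members did not overlap, 2 higher (7.52% of all) and 4 lower (19% of all), beside 26.5% of all in either direction. The count was 5 with median centring, where gga-miR-15b-3p, gga-miR-16-2-3p and gga-miR-16c-5p went under the 2-fold limit. The guides gga-miR-15a, gga-miR-15b-5p and gga-miR-15c-5p passed under all 3 scalings shown.

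**Figure D4:**
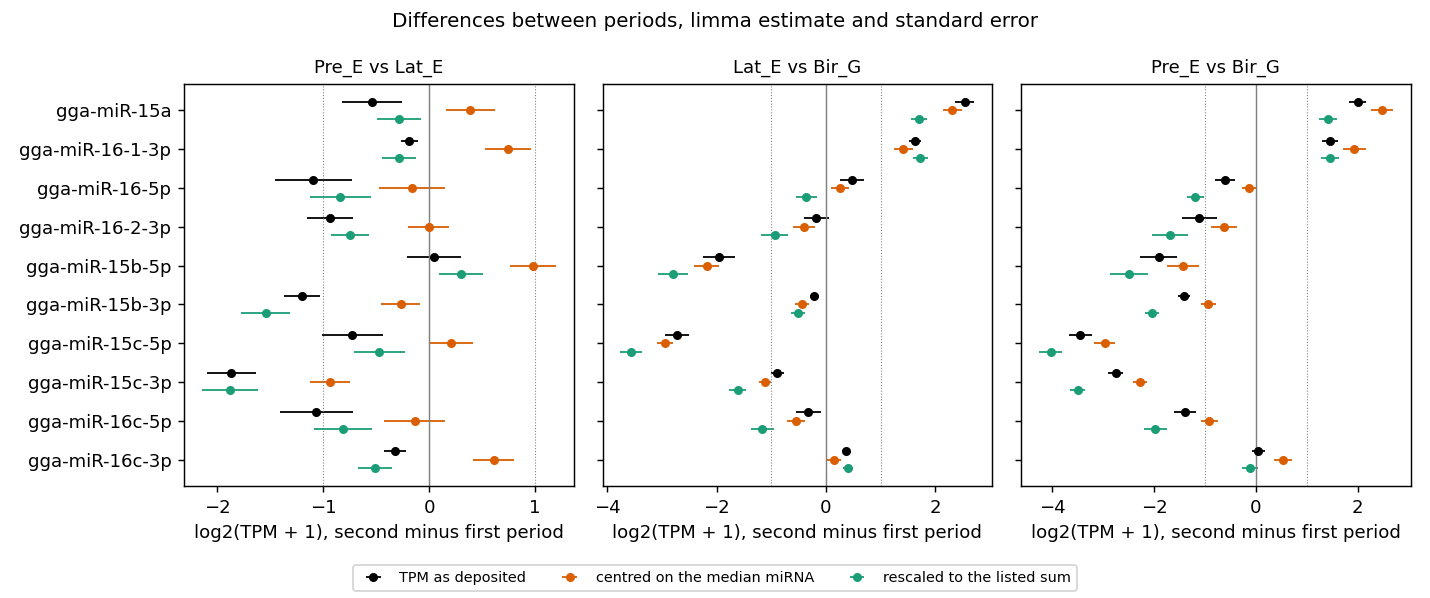
Differences between periods (log2(TPM + 1), limma estimate ± SE) of the 10 members in the deposited TPM, after median centring and after scaling to the sum of listed miRNAs. gga-miR-15a, at 2.54 ± 0.18, and gga-miR-15c-5p, at -2.72 ± 0.22, keep their sides of 0 between Lat_E and Bir_G in all 3 scalings, whereas the Pre_E to Lat_E differences of gga-miR-16-5p and gga-miR-16c-5p shrink to -0.16 and -0.14 with median centring.

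Step by step, the members moved mostly at D1 to D36. Over 12 pairs of neighbouring stages, 9 of 120 member tests were called, beside 4.32% of 9792 tests over all miRNAs. 5 of them were rises from D1 to D36, where 21.1% of 816 miRNAs were called and 14.6% were higher. gga-miR-15a rose by 3.04 ± 0.31 (limma, adjusted p = 6.0e-09), and of the 3 D1 samples, at 80.7, 206 and 76.3 TPM, none came near the D36 samples. The others were gga-miR-16-1-3p at 1.43 ± 0.22 (3.39 with 0.1 as the value added before the log), gga-miR-16-5p at 1.55 ± 0.39, gga-miR-16c-5p at 1.33 ± 0.31 and gga-miR-16-2-3p at 1.08 ± 0.28. gga-miR-15a kept its call with median centring (2.10) and sum scaling (1.98), while gga-miR-16-5p (0.61 and 0.49), gga-miR-16c-5p (0.39 and 0.28) and gga-miR-16-2-3p (0.14 and 0.15) lost theirs under both, and without the samples numbered 3. gga-miR-16c-5p was also lost, at 0.999 and so just under the 2-fold limit, without the samples numbered 1. gga-miR-16-2-3p was also lost, at 0.88, without that E18 and that D1 sample. gga-miR-16-1-3p lost its call with median centring (0.49) and kept it with sum scaling (1.52). Median centring also called 2 falls in this step, gga-miR-15c-5p at -1.77 (limma, adjusted p = 7.2e-07) and gga-miR-15c-3p at -1.21 (limma, adjusted p = 0.00033). Across the same step the erythroid marker sum went from 8.94 to 15.6 TPM to 530 to 649 TPM and the leukocyte sum from 59.2 to 117 TPM to 1721 to 3943 TPM, and their part in the rises and falls of this step was not tested.

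The other 4 calls between neighbours were falls. No member was called by limma in the remaining 8 steps, in which E9 to E12 called 10.9% of all miRNAs, E15 to E18 and E20 to D1 2.21% each, D36 to D100 0.123%, D300 to Y3 2.7%, Y3 to Y5 and Y8 to Y12 0.735% each and Y5 to Y8 0.368%. In E9 to E12, 4 members had an unadjusted p of at most 0.05, and 3 had an adjusted p in that range with differences under the 2-fold limit. gga-miR-15c-3p fell by 1.03 on the log2 scale from E12 to E15 (limma, adjusted p = 0.000816), where 3.55% of all miRNAs were called and 3.31% were lower. It was lost with median centring (-0.98) and without the samples numbered 1 (-0.82). gga-miR-16c-5p had a difference of -1.34 ± 0.31 from E18 to E20 (limma, adjusted p = 0.0333), where 0.368% of all were called. That call was lost with median centring (-0.92), without the samples numbered 1 (-0.92) and without those numbered 3 (-1.32), and went to -0.93 with an adjusted p of 0.139 (limma) when the high E18 sample and the D1 sample numbered 3 were left out. From D100 to D300, where 6.86% of all were called and 3.68% were lower, gga-miR-15b-5p had a difference of -1.22 ± 0.31 (limma, adjusted p = 0.00793), and its 3 D300 samples of 77.2 to 119 TPM lay under the D100 samples of 183 to 228 TPM. It was lost with median centring (-0.99) and without the samples numbered 1 (-1.05). In the same step gga-miR-16-2-3p had a difference of -1.49 ± 0.28 (limma, adjusted p = 0.000635), lost without the samples numbered 3 (-1.22).

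Within the stages from E9 to D1 alone, 8 of 10 members fell with stage order, where 42% of 760 miRNAs were called and 39.3% were lower. The slopes were -0.53 per stage for gga-miR-15c-3p, -0.38 for gga-miR-16-5p, -0.37 for gga-miR-16c-5p and -0.31 for gga-miR-15c-5p, on the log2(TPM + 1) scale. gga-miR-15b-5p (-0.07) and gga-miR-16-1-3p (-0.05) were not called. These slopes are relative to the library total. With median centring 1 of the 8 falls was kept, that of gga-miR-15c-3p at -0.22, while gga-miR-16-5p (-0.07) and gga-miR-16c-5p (-0.06) were not called and gga-miR-15c-5p was at about 0. In that scaling gga-miR-15b-5p (0.23, adjusted p = 0.0039), gga-miR-16-1-3p (0.26, adjusted p = 3.5e-05) and gga-miR-16c-3p (0.20, adjusted p = 0.00024) rose (limma). Within the stages from D36 to Y12, 5 of 10 fell, where 17.7% of 576 miRNAs were called and 14.1% were lower. gga-miR-15b-5p fell most, at -0.34 ± 0.06 per stage, followed by gga-miR-16-2-3p at -0.27 and gga-miR-15c-5p at -0.20 ± 0.04. gga-miR-15a had a slope of 0.06 and was not called (limma, adjusted p = 0.337), so its level from D36 on was not shown to change with age. Over all 39 muscle samples a quadratic in stage order with an R-squared of at least 0.6 was met by 5 members, beside 26.6% of 816 miRNAs, 19.7% falling and 6.86% rising. They were gga-miR-15c-3p (0.923), gga-miR-15c-5p (0.907), gga-miR-15b-5p (0.783) and gga-miR-15b-3p (0.703), which fell, and gga-miR-16-1-3p (0.696), which rose. gga-miR-15a, whose course is a step, reached 0.579.

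In the entire embryos gga-miR-15c-5p led the family as well, with 4257, 3938 and 3588 TPM at E5 and 4828, 5148 and 4663 TPM at E7. gga-miR-15a was at 126, 120 and 153 TPM at E5 and 215, 212 and 161 TPM at E7, without overlap. No member was called between E5 and E7 by limma, beside 7.03% of 768 miRNAs, and 3 members had an unadjusted p of at most 0.05.

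The guides of the neighbouring miR-15c and miR-16c hairpins did not keep a fixed ratio from the embryonic periods to Bir_G. gga-miR-15c-5p exceeded gga-miR-16c-5p, from the hairpin next to it, by 2.75 ± 0.46 on the log2 scale in Pre_E and 3.09 ± 0.59 in Lat_E, but by 0.70 ± 0.28 in Bir_G (mean ± SD over samples, ratio of TPM + 1). The samples of Lat_E and Bir_G did not overlap, at 1.94 to 3.97 in Lat_E and 0.07 to 1.18 in Bir_G, and the difference between them was -2.40 (two-sided permutation test, adjusted p = 3.3e-05 over 30 ratio tests). Pre_E and Lat_E differed by 0.34 in this ratio (exact two-sided permutation test, adjusted p = 0.261). For the neighbours gga-miR-15a and gga-miR-16-1-3p, the sign of the Lat_E to Bir_G difference depended on the value added (0.90 with 1, -1.09 with 0.1). The guides gga-miR-15b-5p and gga-miR-15a, from different hairpin pairs, crossed over. gga-miR-15b-5p was 0.39 above gga-miR-15a in Pre_E and 0.98 above it in Lat_E on the log2 scale, but stood at -3.51 against it in Bir_G. The Pre_E samples ran from -0.30 to 0.71, with 1 E9 sample below 0, the Lat_E samples from 0.40 to 1.94 and the Bir_G samples from -4.92 to -1.49. In all, 23 of the 30 ratio tests passed an adjusted p of 0.05 (18 to 23 without the samples of 1 number) and 7 had no overlap. The ratios reuse the same members, so these are not separate results. The permutations exchanged single samples although each period is made of whole stages, and no version with stage means was run. Their p-values therefore do not measure the spread between stages. No share over ratios of other miRNAs was computed to set beside these counts.

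From E9 to D1 the ratio of the miR-16 guides varied less than either guide did, which was not particular to this pair. Over the same stages gga-miR-15c-5p stood to gga-miR-15b-5p at 2.14 to 3.58 on the log2 scale, while these guides spanned 6.26-fold and 5.12-fold. gga-miR-16c-5p stood to gga-miR-16-5p at -2.12 ± 0.17 on the log2 scale in Pre_E and at -2.09 ± 0.16 in Lat_E (mean ± SD), a difference of 0.03 (exact two-sided permutation test, adjusted p = 0.761). Over the 18 samples the ratio ran from -2.47 to -1.85 while gga-miR-16-5p itself spanned 11.1-fold and gga-miR-16c-5p 8.84-fold. The high E18 sample, with 4212 and 880 TPM, and the D1 sample numbered 1, with 379 and 99.6 TPM, lay at the ends of both ranges and within that ratio. In Bir_G the ratio was lower, at -2.90 ± 0.50, and varied more than either guide, 4.54-fold beside 2.92-fold for gga-miR-16-5p and 3.18-fold for gga-miR-16c-5p. These miRNAs come from different hairpin pairs. No 2 of the 5 abundant members held the same value in any of the 39 muscle samples, so they were not listed with shared reads in whole. Reads shared in part would not show in this check and were not tested.

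Over the 13 muscle stage means, gga-miR-15a and its neighbour passenger gga-miR-16-1-3p moved alike (Pearson r of 0.96), as did gga-miR-15b-5p and gga-miR-15c-5p (0.93), while gga-miR-15a and gga-miR-15c-5p moved oppositely (-0.85). These values describe 13 points that share libraries and a common order. Among 168 other known miRNAs whose mean reached 10 TPM, those most like gga-miR-15a were gga-miR-22-5p (0.964), gga-miR-146c-5p (0.962) and gga-miR-101-2-5p (0.960). gga-miR-15c-5p was most like gga-miR-106-3p (0.990), gga-miR-1552-3p (0.988) and gga-miR-181b-5p (0.987), and gga-miR-15b-5p most like gga-miR-181a-5p (0.973), gga-miR-206 (0.970) and gga-miR-499-3p (0.952). gga-miR-16c-5p was most like gga-miR-17-5p (0.945), gga-miR-199-3p (0.938) and gga-miR-301a-3p (0.898). gga-miR-16-5p had no close partner, with gga-miR-1662 first at 0.787, followed by gga-miR-1451-5p and gga-miR-146c-3p, both at 0.767.

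Other miRNAs known in mammals for acting on the cell cycle were followed beside the family, as a list of 20 of which 19 were listed in muscle. From Pre_E to Lat_E 4 fell and none rose by limma, beside the 19.3% called over all miRNAs, with a list median of -0.68 against -0.21 over all and -0.84 over the miRNAs whose mean reached 10 TPM. The 4 were gga-miR-222a (-1.64), gga-miR-106-5p (-1.58), gga-miR-103-3p (-1.15) and gga-miR-20b-5p (-1.05). From Lat_E to Bir_G 4 rose and 7 fell, beside 27.8% of all, with a list median of -0.31 against -0.03 over all. Over the miRNAs whose mean reached 10 TPM that median was 0.26. Those that rose from Lat_E to Bir_G included gga-miR-34a-5p, switched on by p53 in mammals, at 1.93, and gga-miR-19b-3p and gga-miR-20a-5p of the proliferation cluster of miR-17, at 3.19 and 1.77. Not all of that cluster rose: gga-miR-17-5p was not called, at -0.20 (limma, adjusted p = 0.304), and gga-miR-92-3p fell. gga-miR-18a-5p was listed at 0 in all 12 Lat_E samples and was called higher, with no fold given. Those that fell from Lat_E to Bir_G included gga-miR-92-3p at -2.52, gga-miR-20b-5p at -2.21, gga-miR-222a at -2.07, gga-miR-106-5p at -1.89, and gga-miR-107-3p and gga-miR-103-3p, relatives of this family in mammals, at -1.79 and -1.17. From Pre_E to Bir_G 4 of the 19 rose and 7 fell, beside 11.5% higher and 24.6% lower over all miRNAs, with a list median of -0.43 against -0.19 over all and -0.61 over the more abundant ones. In gga-miR-34b-5p and gga-miR-34c-5p, also on the list, the values were identical in 38 of 39 muscle samples, so their reads were not separated.

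In the other tissues, the label of the kidney was not borne out by its markers. gga-miR-194, a kidney and gut miRNA, lay at 2.08 to 3.70 TPM in the kidney samples and at 3.44 to 8.94 TPM in the other 4 tissues, and gga-miR-192-5p was not listed. The markers of the other tissues were high where labelled, with gga-miR-9-5p at 45103 to 61217 TPM in brain, gga-miR-122-5p at 6374 to 7494 TPM in liver, gga-miR-202-5p at 578 to 1162 TPM in ovary, and the leukocyte sum at 77417 to 131090 TPM in spleen. Counts of called members between tissues are therefore also given without the samples labelled kidney. The levels of kidney and its differences from other tissues rest on that label and have no such version.

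Spleen held the most of this family and kidney the least. The summed family was 9117, 10826 and 11238 TPM in spleen, 6549, 6789 and 5918 TPM in liver and 6288, 5452 and 4325 TPM in ovary. It was 3501, 3049 and 3418 TPM in brain and 1222, 1851 and 1534 TPM in kidney. Among the samples of these tissues, spleen lay above and kidney below all others, and liver and ovary overlapped. The kidney sample with 1222 TPM had a low sum over all listed miRNAs, at 410664 TPM against 788209 and 847464 TPM in the other kidney samples. As a share of all listed miRNAs the family took 0.181% to 0.298% in kidney, 0.347% to 0.402% in brain and 1.08% to 1.38% in spleen. Pectoral muscle at D300, from the other table and set beside these with no test, held 4337, 4398 and 2907 TPM. miR-15c and miR-16c together made 10.5% to 27.6% of the family in liver, ovary, brain and spleen and 45.4% to 46.8% in kidney.

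9 of 10 members differed between the 5 tissues (limma moderated F test, adjusted p of at most 0.05), all but gga-miR-15b-3p, beside 60.8% of 668 miRNAs. Over the 10 pairs of tissues 40 of 100 member tests were called, beside 25.7% of 6680 tests over all miRNAs, and 22 of the 40 held under every alternative tried. Spleen and kidney gave 7 of 10 (23.5% of all miRNAs), brain and spleen 6 of 10 (32.5%) and liver and kidney 5 of 10 (23.8%). 4 of 10 were called between brain and liver (32%), liver and spleen (17.7%), ovary and spleen (18.7%) and ovary and kidney (21.6%), and 3 of 10 between brain and ovary (30.4%) and brain and kidney (34.4%). Between liver and ovary limma called 0 members (22.9% of all), 3 had an unadjusted p of at most 0.05, and edgeR also called 0. Without kidney the F test again called 9 of 10 members, beside 56% of all, and the 6 remaining pairs gave 22 of 60 calls, against 21 with kidney in the fit, all 21 shared.

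gga-miR-16-5p led in every tissue but kidney, with 4603, 4937 and 4760 TPM in spleen, 3314, 3114 and 2523 TPM in ovary, 3096, 3368 and 2476 TPM in liver, 1738, 1741 and 1761 TPM in brain and 384, 510 and 400.2 TPM in kidney. Brain stood 2.03 ± 0.14 above kidney on the log2 scale (limma, adjusted p = 1.1e-07), a gap of 0.98 with edgeR that missed the 2-fold limit. Spleen stood 0.68 above ovary (limma, adjusted p = 0.00253) without overlap and under the 2-fold limit, and ovary and liver did not differ beyond their spread. gga-miR-15a was at 1844, 1919 and 2549 TPM in spleen and 2269, 2354 and 1671 TPM in liver, which overlapped. It was at 1513, 1130 and 851 TPM in ovary, 1218, 898 and 1212 TPM in brain and 236, 420 and 320 TPM in kidney. Liver lay 0.87 above ovary (limma, adjusted p = 0.0190, under the 2-fold limit), ovary and brain overlapped, and brain lay 1.79 above kidney (limma, adjusted p = 7.5e-05), or 0.76 with median centring.

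gga-miR-15b-5p was set apart in spleen, at 544, 929 and 947 TPM, against 189, 127 and 344 TPM in liver, 219, 151 and 129 TPM in ovary, 91.9, 56.3 and 82.0 TPM in brain and 30.4, 76.4 and 89.9 TPM in kidney. Spleen was 1.95 ± 0.45 above liver (limma, adjusted p = 0.0062), and this call was lost without the samples numbered 2. Liver and ovary overlapped, as did brain and kidney, and ovary was not called above brain (limma, adjusted p = 0.0639). gga-miR-15c-5p followed the same order at the top, with 1451, 2259 and 2298 TPM in spleen, 687, 613 and 1025 TPM in liver, 907, 718 and 549 TPM in ovary, 367, 560 and 517 TPM in kidney and 328, 253 and 278 TPM in brain. Spleen was 1.37 above liver (limma, adjusted p = 0.0017), a call also lost without the samples numbered 2, liver overlapped with ovary and ovary with kidney. gga-miR-16c-5p held 650, 727 and 657 TPM in spleen, 294, 311 and 380 TPM in liver, 324, 328 and 259 TPM in ovary, 200.5, 280.2 and 201 TPM in kidney and 119, 95.8 and 81.5 TPM in brain. It was the 1 abundant member for which kidney was called above brain, by 1.19 (limma, adjusted p = 7.5e-05). Against gga-miR-16-5p it stood at -0.93 in kidney (-0.99 to -0.86) and at -4.15 in brain on the log2 scale, the ends of the 5 tissues.

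**Figure D5:**
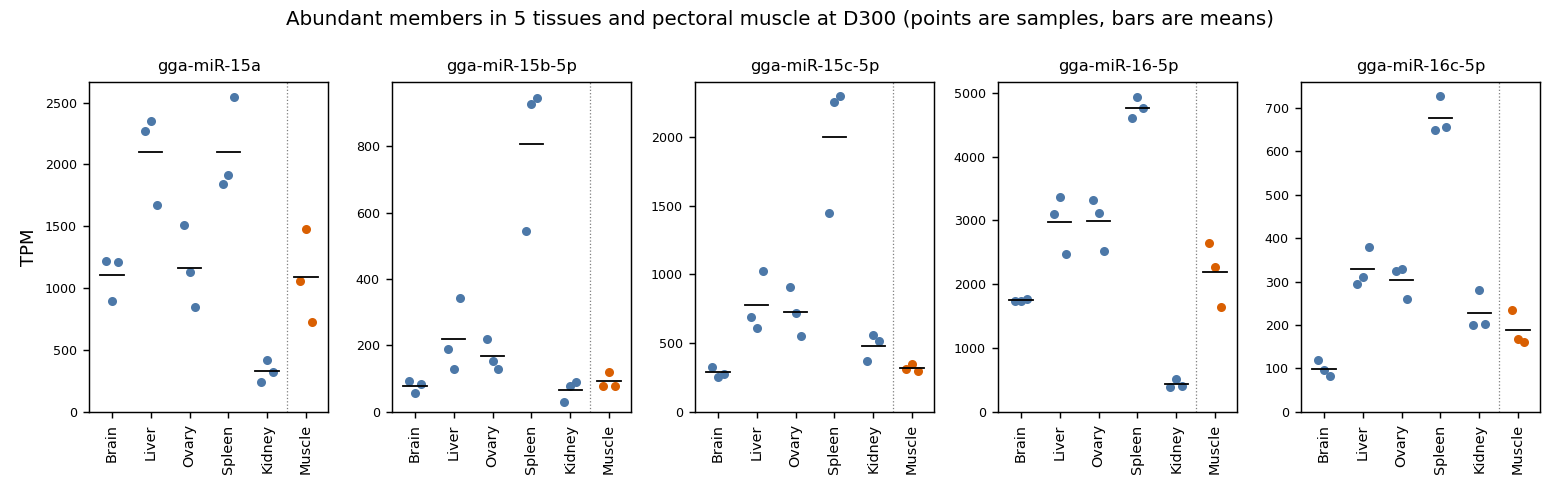
TPM (linear axes) of the 5 abundant members in the 3 samples of each of 5 tissues at D300, with pectoral muscle at D300 from the other table beside them (points for samples, bars for means of 3). Of the 5 tissues, spleen is highest or level with the highest for each member. Kidney is lowest of them for gga-miR-15a and gga-miR-16-5p and brain for gga-miR-15c-5p and gga-miR-16c-5p, while kidney and brain overlap for gga-miR-15b-5p.

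Among the passengers, gga-miR-16-2-3p was highest in spleen at 18.8, 49.7 and 21 TPM, and gga-miR-16-1-3p was highest in liver at 5.34, 7.17 and 3.63 TPM and lowest in kidney at 0.452, 0.866 and 0.726 TPM. gga-miR-16-1-3p gave a median of 13.4% of the reads of the 2 miR-16 passengers in spleen and 53.8% in brain. gga-miR-16-2-3p was 1.30 higher in spleen than in liver (limma, adjusted p = 0.0189), a call lost without the samples numbered 1 and without those numbered 2. The leukocyte sum, highest in spleen, was 10440 to 21974 TPM in liver, and the erythroid sum was 814 to 1818 TPM in spleen. Their part in the tissue differences was not tested.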

How the data were processed

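Per the labels and the methods of the study, the authors trimmed adapters with cutadapt, kept reads of 18 to 30 nt, removed other small RNAs with bowtie2 (Bowtie in the submitters' processing notes), matched the rest to miRBase entries and to predictions of miRDeep2, and deposited their TPM in 2 tables. Tool versions and the genome build are not given in the sources used here. The deposited values are RPM made by the authors, since the values are whole multiples of 1 step in each of the 60 samples. The tolerance was 0.05 reads and widened with the read number. Reads were taken as recovered in 56 samples and not in the other 4. The design had assumed TPM, and tests on a log scale serve both. 1 unnamed column was not used.

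The members and lists were chosen with earlier results of these data known. Named miRNAs were all members, the 3 known miRNAs most correlated with each abundant member over stage means, and a list of cell cycle miRNAs. The part of that list's rule that needed shared seeds was not applied, since no sequences were used here. Groups were compared with limma on log2(TPM + 1) with Benjamini-Hochberg adjustment over all miRNAs above 0 in at least 1 sample, and a call needed an adjusted p of at most 0.05 and, except for trends, the F test and the time course, an absolute log2 difference of at least 1. Neighbouring stages shared 1 fit of 39 samples. Ratios of members were tested by permuting samples, exactly for comparisons with the 6 Pre_E samples and with 100000 draws for Lat_E against Bir_G, whose smallest possible p is 1e-05 before adjustment. The 2 tables were tested separately. Alternatives were a minimum mean of 1 TPM, 0.1 in place of 1 as the pseudocount, median centring, sum scaling, stage means, days on a log scale, unadjusted p, edgeR on recovered reads, the replicate number as a block and leaving out samples by number. Leaving out 1 E18 and 1 D1 sample, and leaving out kidney, were added after seeing the data. Scripts were tested on simulated data. limma 3.58.1 and edgeR 4.0.16 ran under R 4.3.3. SciPy 1.17.1, pandas 2.3.3, NumPy 2.4.6 and Matplotlib 3.10.9 ran under Python 3.11.15.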

Additional observations from a re-analysis of the deposited data

How the results depend on the processing

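Counts of called members moved by over 1.5 times in these cases. From Pre_E to Lat_E the 4 calls became 0 with median centring, 2 with sum scaling, 1 with stage means as units and 2 with edgeR on recovered reads, and 2 to 4 when the samples of 1 number were left out. From Pre_E to Bir_G the 8 calls became 5 with median centring (7 to 8 without the samples of 1 number). Between neighbouring stages there were 9 calls and 5 with median centring, of which 2 were among the 9 and 3 were new (5 to 11 without 1 number). The new calls were a rise of gga-miR-16-5p from E15 to E18 (1.01) and falls of gga-miR-15c-5p and gga-miR-15c-3p from D1 to D36. From E9 to D1 there were 8 trends, all falls, and 4 with median centring, 1 a fall and 3 rises (5 to 8 without 1 number). In that scaling slopes changed sign for gga-miR-15a (0.0773), gga-miR-15b-3p (0.0014), gga-miR-15b-5p (0.23), gga-miR-16-1-3p (0.26), gga-miR-16-2-3p (0.0438) and gga-miR-16c-3p (0.20). With a pseudocount of 0.1 the ratio differences changed sign for gga-miR-15b-5p to gga-miR-15b-3p (1.41) and gga-miR-15c-5p to gga-miR-15c-3p (0.58) between Pre_E and Bir_G, and for gga-miR-15a to gga-miR-16-1-3p between Lat_E and Bir_G (-1.09) and between Pre_E and Bir_G (-0.80), since passengers near 0 depend on the value added. The causes of the other changes were not tested. From Lat_E to Bir_G the count was 4 to 6 over all alternatives.

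Each muscle stage came from its own birds, and whether tissues of the same number share a bird is not stated. Deviations from group means of samples with the same number correlated at -0.575 to 0.560 over 234 pairs in muscle (median 0.0111). In tissues they correlated at -0.263 to 0.372 over 30 pairs (median 0.0439). With 3 samples a group, these values cannot show whether organs of the same number share a bird. With the replicate number as a block the counts stayed at 4, 4 and 8 for periods, 9 for neighbouring stages and 8 and 5 for trends. They also stayed at 5 for the time course, 9 for the F test, 40 for pairs of tissues and 0 for E5 to E7. Depth limits gga-miR-15b-3p in Lat_E and Bir_G, gga-miR-16c-3p, and gga-miR-16-1-3p from E9 to D1, where values lie near 3 reads.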
